A study of Mus musculus with 6 samples.

Results

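The miR-30 family was followed here as 9 mature miRNAs counted in mouse pancreatic islets, the endocrine tissue of the pancreas. They are the 5p strands of mir-30a, mir-30b, mir-30c, mir-30d and mir-30e, and the 3p strands of mir-30a, mir-30c-2, mir-30d and mir-30e. They were taken by name from a table of 1011 small RNAs, and all 9 were among the 406 that passed the filter on low counts. There were 3 libraries from islets of mice on the diet labelled HFD and 3 from mice on the diet labelled NCD. Strain, age and sex are not given in the labels used here, nor whether a library held the islets of 1 animal or of a pool. The p-values therefore measure the spread between these libraries, which may be technical.

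A mature miRNA guides Argonaute to transcripts that pair with its seed, the bases 2 to 8 from its 5′ end. Hairpins that share a seed on the 5p strand form a family with overlapping targets, and the opposite strand, the 3p strand here, carries another seed. In human fetal islet cells the miR-30 family is known to restrain mesenchymal transcripts during the change from epithelial to fibroblast-like cells. In a mouse beta-cell line miR-30d is known as a glucose-induced miRNA that favours insulin gene expression.

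The 5 listed 5p strands are shown first because 1 seed, in capitals, joins them and their 3′ parts tell them apart. The letters are those of the deposited table.
mmu-miR-30a-5p: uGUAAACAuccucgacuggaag
mmu-miR-30d-5p: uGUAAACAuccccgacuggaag
mmu-miR-30e-5p: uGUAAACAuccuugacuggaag
mmu-miR-30b-5p: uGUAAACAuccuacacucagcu
mmu-miR-30c-5p: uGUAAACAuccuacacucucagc
Positions are counted from 1 at the 5′ end. Between miR-30a-5p and miR-30d-5p the only substitution is U12C, and between miR-30a-5p and miR-30e-5p it is C13U. miR-30d-5p and miR-30e-5p differ at 2 positions. miR-30b-5p and miR-30c-5p differ from each other at 4 of the 22 positions compared, and from the other strands at 5 to 8. The sources used here do not give the rule for counting a read that matches more than 1 of these names. Reads may therefore be exchanged among miR-30a-5p, miR-30d-5p and miR-30e-5p.

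The 3p strands are shown because they do not carry the family seed and 2 of them are nearly the same molecule. Their own bases 2 to 8 are in capitals.
mmu-miR-30a-3p: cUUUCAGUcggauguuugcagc
mmu-miR-30e-3p: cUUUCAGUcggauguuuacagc
mmu-miR-30d-3p: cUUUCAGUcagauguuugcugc
mmu-miR-30c-2-3p: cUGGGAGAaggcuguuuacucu
The strands of mir-30a and mir-30e differ by G18A alone, so these rows may share reads too. RefSeq (GRCm38.p6) listed 6 of the 9 members by name, with the same letters. All 9 sequences are 22 or 23 bases long, so levels of different members are close to a per-length scale. Ligation of adapters favours some miRNA ends over others, which limits comparisons between members more than comparisons of 1 member between libraries.

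The hairpins lie in 3 pairs in GENCODE M21 (GRCm38), to which the mature sequences were matched. Mir30a (chr1:23272269-23272339, outside other annotated genes) and Mir30c-2 (chr1:23291701-23291784, overlapping an exon of the lincRNA Gm27028) are on the plus strand, 19361 bases apart. Mir30e (chr4:120772606-120772697) and Mir30c-1 (chr4:120769534-120769622) lie 2983 bases apart on the minus strand in an intron of Nfyc, which encodes a subunit of the transcription factor NF-Y. Mir30b (chr15:68337415-68337510) and Mir30d (chr15:68341208-68341289) are 3697 bases apart on the minus strand. They overlap exons of the non-coding genes Gm26621 (Mir30b), Gm20732 and Gm37296 (Mir30d). miR-30c-5p is made from both mir-30c hairpins and cannot be assigned to either.

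The libraries held 9431818 to 11059628 counts for HFD and 7166712 to 11172255 for NCD. A fixed list of 12 islet and epithelial miRNAs took 80.3% to 84.5% of the reads in HFD and 79.3% to 84.7% in NCD libraries, while the 4 acinar miRNAs took at most 0.0204% in HFD and 0.0723% in NCD libraries. NCD 3 stood apart, with a TMM size factor of 1.73, against 0.84 to 0.995 in the other libraries. Levels below are CPM, counts relative to the library total after scaling by these factors, so they weigh NCD 3 differently from shares of raw reads. In bulk islets, fewer cells of a type and less RNA per cell cannot be told apart.

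The summed level of the family's 5p strands overlapped between the diets. The 5 listed 5p strands together had 13052, 13882.5 and 16422 CPM in HFD 1, 2 and 3, and 12619.7, 15394 and 12949 CPM in NCD 1, 2 and 3. The mean was 14452 ± 1756 CPM across HFD libraries, against 13654 ± 1515.5 CPM across NCD libraries (SD, n = 3), a ratio of 1.06. This sum was not tested, since its members were chosen.

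As a share of raw reads the order of the means was the other way. The 5p strands took 1.10%, 1.17% and 1.63% of the reads in the HFD libraries and 1.19%, 1.34% and 2.24% in the NCD libraries. The mean was 1.30% ± 0.291 across HFD libraries, against 1.59% ± 0.569 across NCD libraries (SD, n = 3), and NCD 3 held the highest share. The log2 ratio of the pool between diets was 0.08 with TMM factors and -0.29 with library totals only. The 95% Wilson intervals of these shares were at most 0.0204 percentage points wide. They cover counting error alone, because PCR copies without molecular identifiers are not independent.

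Among all seeds in the table, that of miR-30 ranked 7 of 854 by its mean share of reads over the 6 libraries. Within single libraries it ranked 8, 8 and 7 in HFD 1, 2 and 3, and 8, 7 and 7 in NCD 1, 2 and 3. The table holds 6 rows with this seed. The additional row is miR-384-5p, from a hairpin on the X chromosome, shown because it has the seed and little else in common.
miR-384-5p: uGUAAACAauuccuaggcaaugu
Its share of the 6-row seed pool was 0.179%, 0.119% and 0.239% in the HFD libraries and 0.0904%, 0.130% and 0.352% in the NCD libraries. The 5 listed strands therefore made up nearly the whole pool in both diets.

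miR-30d-5p and miR-30a-5p made up most of the pool in every library. miR-30d-5p held 54.1%, 62.8% and 58.7% of it in HFD 1, 2 and 3, and 66.2%, 60.1% and 67.4% in NCD 1, 2 and 3. miR-30a-5p held 39.9%, 32.1% and 34.4% in the HFD and 26.1%, 32.8% and 26.0% in the NCD libraries. For both strands the diets overlapped, through HFD 2 and NCD 2. The mean share of miR-30d-5p was 58.5% ± 4.38 across HFD libraries, against 64.6% ± 3.91 across NCD libraries, a difference of -6.04 percentage points (SD, n = 3, exact permutation p = 0.2), which was -3.82 points without HFD 1. That of miR-30a-5p was 35.5% ± 4.003 across HFD libraries, against 28.3% ± 3.92 across NCD libraries, a difference of 7.15 points (SD, n = 3, exact permutation p = 0.2). Shares of 1 pool are not independent of each other, and since these strands differ by 1 base, an exchange of reads between their rows would move both.

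The remaining shares were small. miR-30c-5p held 3.58%, 3.34% and 4.21% in HFD 1, 2 and 3, and 5.93%, 5.08% and 4.35% in NCD 1, 2 and 3. It was the 1 strand of the 5 whose share did not overlap between the diets, lower in HFD islets, with 3.71% ± 0.447 across HFD libraries, against 5.12% ± 0.789 across NCD libraries (SD, n = 3). The gap of -1.41 points had an exact permutation p of 0.1, the smallest that 3 against 3 libraries can give, and an adjusted p of 0.333 over the 5 shares, so it did not pass. HFD 3 and NCD 3 were the nearest libraries of the 2 diets.

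miR-30e-5p held 1.58% to 2.42% in the HFD and 1.63% to 1.80% in the NCD libraries, a difference of 0.369 points (exact permutation p = 0.4), which was 0.203 without HFD 3 and 0.621 without HFD 2. miR-30b-5p held 0.185% to 0.260% in the HFD and 0.155% to 0.542% in the NCD libraries, with the highest share in NCD 3 (exact permutation p = 1). The tests were two-sided, and the adjusted p of the other 4 shares ran from 0.333 to 1. The 95% Wilson intervals of the shares were at most 0.636 points wide.

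**Figure D1:**
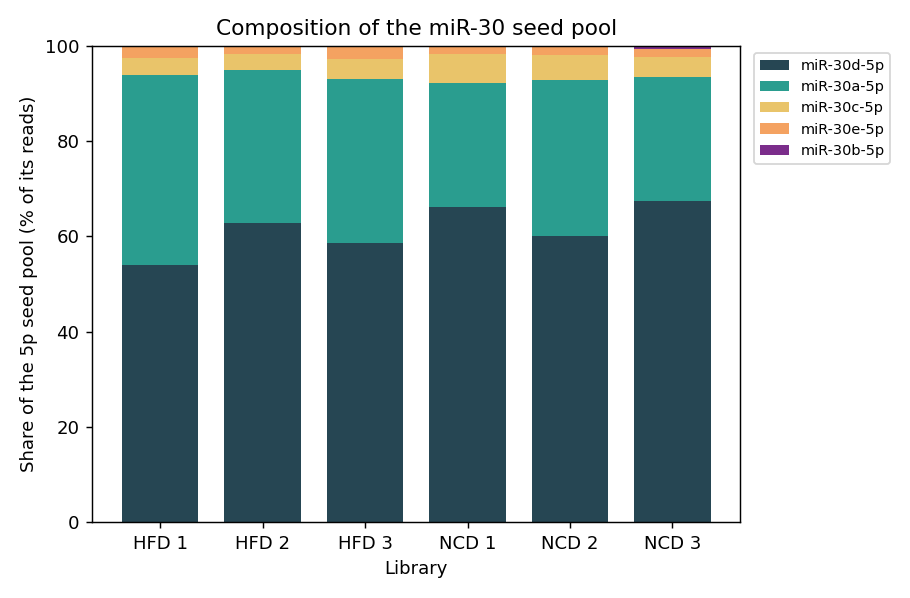
Each bar is 1 library, HFD on the left and NCD on the right, and its segments are the percentage of the 5p seed pool's reads held by each strand. miR-30d-5p and miR-30a-5p fill most of every bar; the miR-30c-5p segment is 3.34% to 4.21% in HFD and 4.35% to 5.93% in NCD libraries.

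The next comparison asked whether the level of any member differed between HFD and NCD islets. None of the 9 did by the edgeR quasi-likelihood test with Benjamini-Hochberg adjustment over the 406 miRNAs, at an adjusted p under 0.05. Over all miRNAs 1 was called, or 0.246% of those tested. At an unadjusted p under 0.05 the count was 0 of 9 members, against 10.1% of all tested miRNAs, and DESeq2, which called 0.739% of all tested miRNAs, and limma-voom also called 0 of the 9. The levels of HFD and NCD libraries overlapped for each of the 9, whereas they did not overlap for 15.3% of all tested miRNAs, 4.93% being lower in HFD islets. Negative log2 fold changes were found for 3 of the 9 members and for 48.5% of all tested miRNAs. NCD 3 was the highest library for 1 member and for 22.4% of all tested miRNAs. The median log2 fold change was 0.06 over the 9 members and 0.02 over all tested miRNAs.

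Among the 5p strands, miR-30d-5p, the most abundant of the family and 11th of all tested miRNAs by mean CPM, had the narrowest range. It was at 7057, 8721 and 9637 CPM in HFD 1, 2 and 3, and at 8355, 9253 and 8727 CPM in NCD 1, 2 and 3. Both the lowest and the highest library were HFD. Its mean was 8472 ± 1308 CPM across HFD libraries, against 8778 ± 451 CPM across NCD libraries (SD, n = 3), with a log2 fold change of -0.05 ± 0.29 (SE, edgeR adjusted p = 0.944). The highest library was 1.37 times the lowest.

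miR-30a-5p, whose hairpin is the neighbour of mir-30c-2, ranked 18th. Its level was 5205, 4453 and 5654 CPM in the HFD and 3291, 5055 and 3367 CPM in the NCD libraries. NCD 2 lay among the HFD values and the other NCD libraries below them. The mean was 5104 ± 607 CPM across HFD libraries, against 3904 ± 997 CPM across NCD libraries (SD, n = 3), with a log2 fold change of 0.39 ± 0.30 (SE, edgeR adjusted p = 0.627). It was 0.22 without NCD 1, 0.60 without NCD 2 and 0.04 with library totals only.

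miR-30c-5p, the product of both mir-30c hairpins, was at 468, 464 and 691 CPM in the HFD and 748, 782 and 563 CPM in the NCD libraries. HFD 3 lay above NCD 3, and the other HFD libraries lay below every NCD library. Its log2 fold change was -0.37 ± 0.31 (SE, edgeR adjusted p = 0.629), from 541 ± 129.96 CPM across HFD libraries, against 698 ± 118 CPM across NCD libraries (SD, n = 3). Without HFD 3 the log2 fold change was -0.63, and it was negative under each of 16 alternative settings, where the adjusted p ran from 0.486 to 0.95.

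miR-30e-5p, from the Nfyc intron, was at 295, 219 and 397 CPM in the HFD and 206, 278 and 222 CPM in the NCD libraries. The diets overlapped, and HFD 3 was highest. Its log2 fold change was 0.37 ± 0.32 (SE, edgeR adjusted p = 0.642), which was 0.10 without HFD 3 and 0.01 with library totals only.

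miR-30b-5p, the cluster neighbour of miR-30d-5p, was the rarest of the 5p strands and the most uneven. It was at 27.4, 25.7 and 42.7 CPM in the HFD and 19.6, 26.5 and 70.2 CPM in the NCD libraries, and 1 library, NCD 3, held the highest value. Its log2 fold change of -0.30 ± 0.46 (SE, edgeR adjusted p = 0.825) became 0.46 ± 0.39 without NCD 3. NCD 3 also had the highest miR-384-5p level, 45.8 CPM, against 23.4, 16.5 and 39.3 CPM in the HFD libraries and 11.4 and 19.99 CPM in NCD 1 and 2. miR-384-5p had a log2 fold change of 0.01 ± 0.49 (SE, edgeR adjusted p = 0.996), which was 0.74 without NCD 3.

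Because neighbouring names may share reads, the fit was repeated with near-identical rows summed, a setting chosen after seeing the data. The same fit also summed miR-30b-5p and miR-30c-5p, which are less alike and differ at 4 of the 22 positions compared. The sum of miR-30a-5p, miR-30d-5p and miR-30e-5p had a log2 fold change of 0.09 ± 0.30 (SE, edgeR adjusted p = 0.925). The sum of miR-30b-5p and miR-30c-5p had -0.38 ± 0.31 (SE, edgeR adjusted p = 0.645). The sum of miR-30a-3p and miR-30e-3p had 0.09 ± 0.36 (SE, edgeR adjusted p = 0.925). None of these sums passed the test.

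The 3p strands were far below their 5p partners for mir-30a and mir-30d, and close to the 5p strand for mir-30e. miR-30a-3p was at 379, 277 and 262 CPM in the HFD and 329, 386 and 165 CPM in the NCD libraries. miR-30e-3p was at 320.5, 266 and 232 CPM in the HFD and 265, 327 and 138 CPM in the NCD libraries. These rows, which differ by 1 base, gave the same order of the libraries within each diet, with NCD 2 highest of all and NCD 3 lowest. Their log2 fold changes were 0.06 ± 0.35 and 0.17 ± 0.35 (SE, edgeR adjusted p = 0.944 and 0.89). Without NCD 3 they were -0.24 and -0.13, and with library totals only -0.20 and -0.10. NCD 3 was also the library with the most acinar miRNA, 418 CPM over the 4 markers, against 20.2 to 205 CPM in the HFD libraries and 111 and 173 CPM in the other NCD libraries. The low 3p levels of NCD 3 were found in scaled CPM. As shares of raw reads, the listed 3p strands together took 0.0655% in NCD 3, and 0.0645% and 0.0709% in NCD 1 and 2. In HFD 1, 2 and 3 they took 0.0669%, 0.0539% and 0.0565%, so NCD 3 was not lowest. The part of the acinar miRNA in the 3p levels of NCD 3 was not tested.

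miR-30c-2-3p was at 88.8, 95.7 and 67.1 CPM in the HFD and 87.4, 94.1 and 69.8 CPM in the NCD libraries. Its means, 83.8 ± 14.9 CPM across HFD libraries, against 83.7 ± 12.6 CPM across NCD libraries (SD, n = 3), were the closest of the family. The log2 fold change was 0.0021 ± 0.32 (SE, edgeR adjusted p = 0.999) and -0.36 with library totals only. miR-30d-3p rested on 21 to 84 reads per library, at 7.24, 2.65 and 7.64 CPM in the HFD and 4.45, 4.82 and 5.19 CPM in the NCD libraries. Its log2 fold change was 0.29 ± 0.48 (SE, edgeR adjusted p = 0.842). It was 0.026 without HFD 3, 0.56 without HFD 2 and -0.08 with library totals only.

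**Figure D2:**
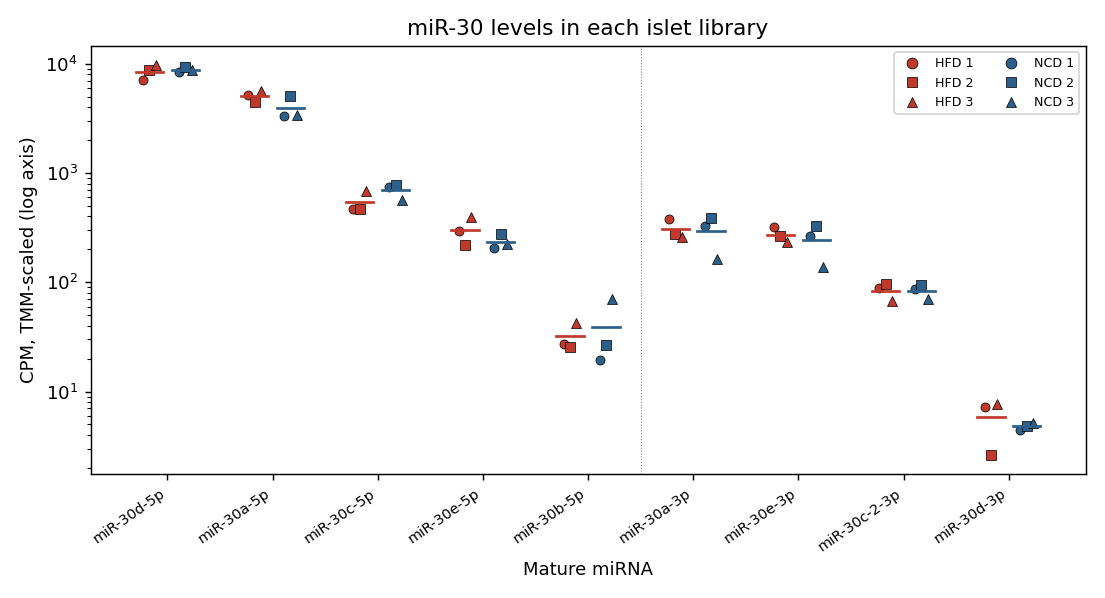
Points are single libraries and short lines are diet means, in TMM-scaled CPM on a log axis, with HFD left of NCD for each miRNA and the 5p strands left of the dotted line. Levels run from 9637 CPM (miR-30d-5p, HFD 3) to 2.65 CPM (miR-30d-3p, HFD 2), and the diets overlap for each of the 9 members.

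**Figure D3:**
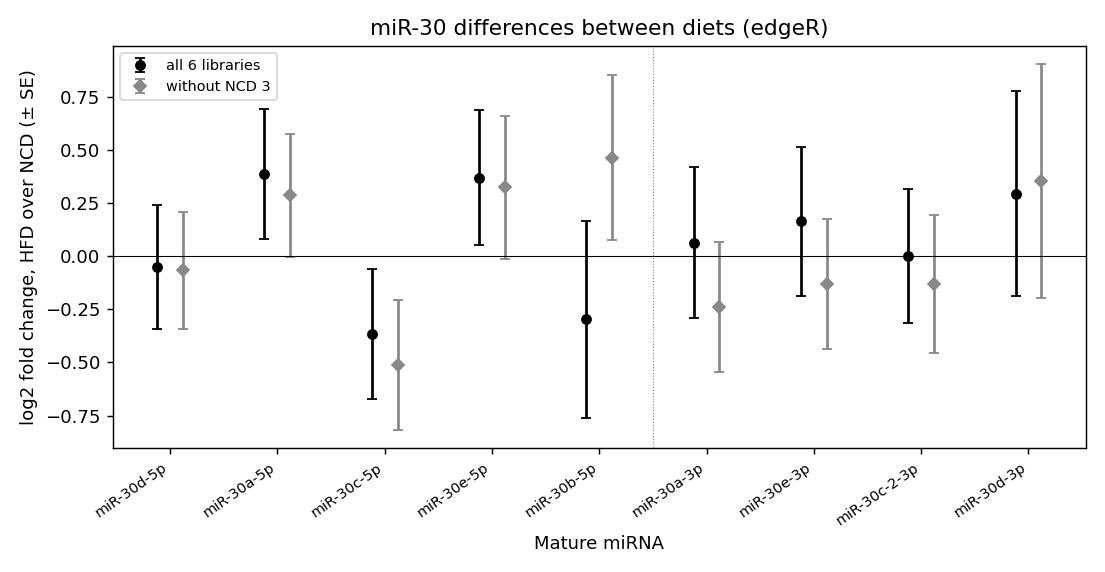
Each point is an edgeR log2 fold change of HFD over NCD with its standard error, for all 6 libraries (circles) and without NCD 3 (diamonds). miR-30b-5p moves from -0.30 to 0.46 when NCD 3 is left out, and miR-30a-3p, miR-30e-3p and miR-30c-2-3p also change sign.

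Arm ratios need no scaling between libraries, since both strands are counted in the same one. For mir-30d the 5p strand outnumbered the 3p strand by 975, 3290.3 and 1262 reads per 3p read in HFD 1, 2 and 3, and by 1877, 1921 and 1681 in NCD 1, 2 and 3. The lowest and the highest ratio were both in HFD libraries, and each ratio rests on 84 or fewer 3p reads. The mean log2 ratio was 10.62 ± 0.91 across HFD libraries, against 10.82 ± 0.10 across NCD libraries, a difference of -0.20 (SD, n = 3, exact permutation p = 0.8).

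For mir-30a the 5p strand had 13.7, 16.1 and 21.6 reads per 3p read in the HFD and 9.999, 13.1 and 20.5 in the NCD libraries. The mean log2 ratio was 4.07 ± 0.33 across HFD libraries, against 3.80 ± 0.52 across NCD libraries, a difference of 0.28 (SD, n = 3, exact permutation p = 0.4). For mir-30e the strands were nearly balanced, with 0.92, 0.824 and 1.71 reads of the 5p strand per 3p read in the HFD and 0.779, 0.848 and 1.60 in the NCD libraries. The difference of the log2 ratio was 0.10 (exact permutation p = 0.6, n = 3 each). In both hairpins HFD 3 and NCD 3 had the highest ratio of their diet, so the spread between libraries of 1 diet was wider than the difference between diets.

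The ratio of mir-30e was far from that of mir-30a although their strands differ by 1 base on each arm. If reads of one were counted under the other, both ratios would be altered. The mir-30e ratio also depends on whether counting used strand, since the miR-30f row overlaps miR-30e-3p on the opposite strand. That of mir-30a may as well, since 17 bases of miR-30f in a row are the reverse complement of miR-30a-3p. With the rows of mir-30a and mir-30e summed on each arm, a setting chosen after seeing the data, the 5p strands had 7.86, 8.60 and 12.3 reads per 3p read in the HFD and 5.89, 7.48 and 11.8 in the NCD libraries (exact permutation p = 0.5 for the log2 ratio, n = 3 each).

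miR-30c-5p had 5.27, 4.85 and 10.3 reads per read of miR-30c-2-3p in the HFD and 8.56, 8.31 and 8.07 in the NCD libraries, a difference of the log2 ratio of -0.38 (exact permutation p = 0.4, n = 3 each). HFD 3 lay above every NCD library and the other HFD libraries below. This ratio is not that of 1 hairpin, since miR-30c-5p also comes from mir-30c-1. After adjustment over the 4 ratios each had a p of 0.8.

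The 3p strand of mir-30c-1 is shown beside that of mir-30c-2 above because each of them matches 1 mir-30c hairpin.
miR-30c-1-3p: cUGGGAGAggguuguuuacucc
miR-30c-1-3p had 17 to 57 reads per library. There were 28.5, 44.6 and 15.4 reads of miR-30c-2-3p per read of miR-30c-1-3p in the HFD and 10.9, 25.5 and 17.2 in the NCD libraries, so the strand from chromosome 1 was the more frequent in each of the 6 libraries. This ratio does not tell which hairpin gave miR-30c-5p, since the balance of the 2 arms differed widely between the hairpins above. miR-30c-1-3p had a log2 fold change of -0.61 ± 0.51 (SE, edgeR adjusted p = 0.629), or -0.78 without NCD 3.

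Beside mir-30e, mir-30b was the other hairpin whose 3p strand matched or exceeded the 5p strand in most libraries.
miR-30b-3p: cUGGGAUGuggauguuuacguc
The 5p strand had 0.788, 0.544 and 0.996 reads per 3p read in the HFD and 0.691, 0.693 and 2.94 in the NCD libraries. NCD 3 was the 1 library with clearly more 5p than 3p reads. The 95% Wilson interval of the 5p share of mir-30b was at most 10.7 percentage points wide, and that of mir-30e 3.45 points. miR-30b-3p had a log2 fold change of 0.47 ± 0.35 (SE, edgeR adjusted p = 0.624), and 0.31 without NCD 3.

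**Figure D4:**
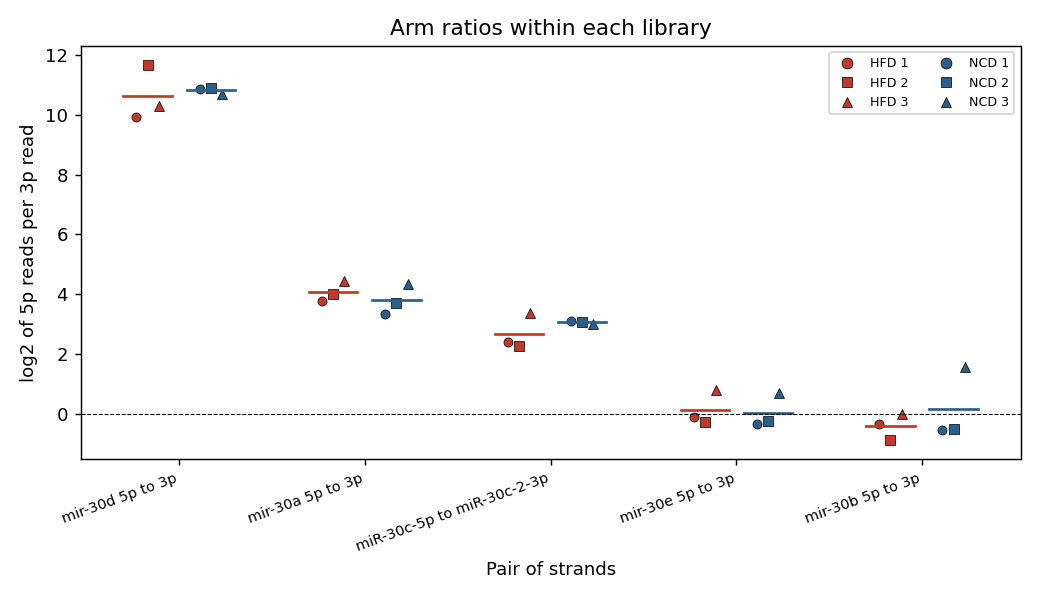
Points are the log2 of 5p reads per 3p read in each library, HFD left of NCD, short lines are diet means and the dashed line marks equal reads. mir-30d lies highest and mir-30e and mir-30b near 0, with HFD 3 and NCD 3 the highest libraries of their diets for mir-30a, mir-30e and mir-30b.

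Neighbouring hairpins were then compared within a library. For the pair on chromosome 15, miR-30b-5p made up 0.387%, 0.294% and 0.441% of the reads of miR-30b-5p and miR-30d-5p together in the HFD and 0.234%, 0.286% and 0.798% in the NCD libraries. The log2 ratio of miR-30b-5p to miR-30d-5p differed by -0.03 between diets (exact permutation p = 1, n = 3 each), and by 0.51 without NCD 3. For the pair on chromosome 1 there were 4.27, 2.90 and 3.90 reads of miR-30a-3p per read of miR-30c-2-3p in the HFD and 3.77, 4.10 and 2.36 in the NCD libraries, a log2 difference of 0.14 (exact permutation p = 0.6, n = 3 each). For the pair in Nfyc there were 103, 124 and 53.0 reads of miR-30e-3p per read of miR-30c-1-3p in the HFD and 33.0, 88.7 and 34.2 in the NCD libraries, a log2 difference of 0.91 (exact permutation p = 0.2, n = 3 each). None of the 3 passed, and the adjusted p values over them were 1, 0.9 and 0.6.

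How alike 2 members were across libraries was measured as the root mean square difference of their log2 CPM, each centred over the 6 libraries. The closest of the 36 pairs was miR-30a-3p with miR-30e-3p, at 0.08, and the next was miR-30a-5p with miR-30e-5p, at 0.17. Both pairs differ by 1 base. miR-30a-5p and miR-30d-5p, also 1 base apart, were at 0.33, the 9th of 36. From the 5p pool itself, miR-30d-5p was at 0.11, miR-30a-5p at 0.22 and miR-30b-5p at 0.60, against a median of 0.51 over all tested miRNAs. The pool holds these strands, so their distances from it are a description.

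Other miRNAs of islet and epithelial identity were also listed, since the family is known for a role in keeping that identity. Of these 12 miRNAs, 9 had a positive log2 fold change, 0 passed edgeR and the median was 0.28. The 6 mesenchymal miRNAs had 1 positive fold change, 0 calls and a median of -0.31. The positive one was miR-143-3p, the most abundant of the 6, with a log2 fold change of 0.50 ± 0.44 (SE, edgeR adjusted p = 0.644). Its mean was 2966 ± 1835 CPM across HFD libraries, against 2095 ± 761 CPM across NCD libraries (SD, n = 3). Over all tested miRNAs 209 of 406 were positive and the median was 0.02. The summed mesenchymal level lay between 1449 and 5237 CPM in HFD libraries and between 1647 and 3238 CPM in NCD libraries, so the diets overlapped. Leukocyte (3 tested), endothelial (2), acinar (3), erythroid (1) and liver and muscle miRNAs (3) had 0 positive fold changes and 0 calls, with medians of -0.82, -0.70, -0.85, -0.26 and -2.61. Summed over all listed miRNAs, the CPM levels of the diets overlapped for each of these lists too. As shares of raw reads, the acinar and erythroid sums overlapped, but the endothelial, leukocyte and liver and muscle sums were lower in every HFD library. The endothelial share was 0.0261% to 0.0365% in HFD and 0.0496% to 0.0704% in NCD libraries. Leukocyte shares reached 0.00111% in HFD and began at 0.00114% in NCD libraries. Those of liver and muscle reached 0.0110% and began at 0.0111%. The liver and muscle sum was 885 CPM in NCD 1, against 127 and 131 CPM in NCD 2 and 3. In HFD libraries that sum lay between 48.3 and 130 CPM. The part of all these lists in the miR-30 values was not tested.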

How the data were processed

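The deposited table gives, per the file headers, a raw read count and a TPM value for each mature miRNA and library. The authors' TPM equals the count divided by the library's summed counts at a fixed scale (CPM), within a relative difference of 4.61e-09. The aligner, counting rule, strand setting and genome build were not given in the sources used here. Per the labels' protocols, an RNeasy mini kit gave the total RNA and a NEBNext small RNA kit the libraries.

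Counts were fitted with edgeR 4.0.16 in R 4.3.3 (filterByExpr with a minimum count of 10, TMM, estimateDisp, glmQLFit with legacy = FALSE, glmQLFTest), with diet as the only term. Shares and log2 ratios (prior count 0.5) were compared with two-sided exact permutation tests (scipy 1.17.1), where 3 against 3 cannot go below 0.1. Alternatives were other size factors, other filters, DESeq2 1.42.0, limma-voom (limma 3.58.1), a replicate block and leaving out the most abundant miRNA or each library. The edgeR fit was tested on simulated counts and the permutation test on made-up values with a known answer. Libraries of 1 diet differed beyond sampling noise (chi-square per degree of freedom 464 to 2280).

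The text names the 9 members, other rows named miR-30, other rows with the seed, the 4 miRNAs nearest to the 5p pool and the most abundant mesenchymal miRNA. The members and lists were chosen with earlier results of these data known. Same-numbered libraries correlated at 0.17, -0.24 and 0.35 in their deviations, so numbers were not taken as pairs.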

Additional observations from a re-analysis of the deposited data

How the results depend on the processing

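No member was called by edgeR, DESeq2 or limma-voom under the alternatives it was tested in, 17 for miR-30c-2-3p and 16 for each of the others, and 0 had an unadjusted p under 0.05. A mean of 100 counts left 8 members tested and summing near-identical rows 2. Over all miRNAs edgeR called 1, against 0 on library totals, 8 with no filter and, by DESeq2, 3. Leaving out a single library gave 0 to 4 calls (0 without NCD 1, 4 without NCD 2, 3 without NCD 3). On library totals the median of all miRNAs was -0.37 and that of the 5p pool to -0.29; leaving out 1 library gave -0.02 to 0.18 for the pool.

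miR-30a-5p and miR-30e-5p kept a positive and miR-30c-5p a negative fold change under all 16 alternatives each. miR-30c-2-3p, at 0.0021, was -0.087 with RLE factors, -0.017 with upper-quartile factors, -0.36 with library totals, -0.064 with no filter, -0.16 above a mean of 100 counts, -0.087 with DESeq2, -0.0016 with limma-voom, -0.050 without the most abundant miRNA and -0.011 with near-identical rows summed. miR-30a-3p was -0.020 with RLE factors, -0.20 with library totals, -0.081 above a mean of 100 counts and -0.021 with DESeq2. With library totals miR-30e-3p was -0.10 and miR-30d-3p -0.083.

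Leaving out 1 library gave ranges of -0.14 to 0.10 for miR-30c-2-3p, -0.24 to 0.31 for miR-30a-3p, -0.13 to 0.43 for miR-30e-3p, -0.68 to 0.46 for miR-30b-5p and -0.20 to 0.034 for miR-30d-5p. The log2 arm ratio difference ran from -0.71 to 0.16 for mir-30d (0.16 without HFD 1, -0.71 without HFD 2), -0.23 to 0.42 for mir-30e (-0.23 without HFD 3, 0.42 without NCD 3), 0.04 to 0.56 for mir-30a (0.04 without NCD 1, 0.56 without NCD 3) and -0.72 to -0.17 for miR-30c-5p to miR-30c-2-3p (-0.72 without HFD 3, -0.17 without HFD 2). The cluster ratios ran from -0.37 to 0.51 (miR-30b-5p to miR-30d-5p) and -0.11 to 0.30 (miR-30a-3p to miR-30c-2-3p), and the share of miR-30b-5p from -0.139 to 0.0547 points. The causes were not tested.

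The replicate block turned the fold change of miR-30c-2-3p to -0.0032 and left 1 miRNA called over all and 0 members; 2 of 6 libraries correlated best with their own number. With 3 pairs the exact test of a ratio or share cannot go below 0.25. With so few libraries, miR-30d-3p and miR-30c-1-3p, at 84 reads or fewer, allow little precision.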

Other observations

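The row named miR-30f lies in the same stretch of chromosome 4 as mir-30e, on the opposite strand, and does not carry the family seed.
miR-30f: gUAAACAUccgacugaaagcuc
It has 19 bases in a row that are the reverse complement of miR-30e-3p, and 17 in a row for miR-30a-3p. There were 58.1, 56.3 and 63.7 reads of miR-30f per 100 reads of miR-30e-3p in the HFD and 40.2, 49.7 and 58.0 in the NCD libraries. The sources used here do not give a strand setting for the counting. Reads from the 2 strands therefore cannot be told apart. The mir-30e arm ratio depends on that setting, and that of mir-30a may as well. miR-30f had a log2 fold change of 0.47 ± 0.34 (SE, edgeR adjusted p = 0.596), which was 0.25 without NCD 3 and overlapped between the diets. Leaving its row out, a setting chosen after seeing the data, changed no call.

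By the root mean square difference of centred log2 CPM over the 6 libraries, the miRNAs outside the family nearest to the 5p pool were miR-24-1-5p (0.13), miR-374c-3p and miR-374b-5p (0.14 each) and miR-3074-1-3p (0.15), of 393 compared. miR-374b-5p and miR-374c-3p had the same level in every library, 40.4, 39.8 and 63.6 CPM in the HFD and 42.0, 47.5 and 43.5 CPM in the NCD libraries, as 1 set of reads under both names would give. miR-24-1-5p averaged 11.96 ± 0.71 CPM across HFD libraries, against 9.91 ± 1.20 CPM across NCD libraries (SD, n = 3), and miR-3074-1-3p, at 11.8 and 9.50 CPM, was close to it in each library. The 4 names may therefore stand for fewer than 4 separate sets of reads. None of them passed edgeR (adjusted p of 0.776 to 0.918).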
